A study of Mus musculus with 8 samples.

Results

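Matrix proteases and their inhibitors were described in immobilized mouse muscle as 10 genes: the matrix metalloproteinases Mmp2, Mmp9 and Mmp14, the tissue inhibitors Timp1, Timp2, Timp3 and Timp4, and the ADAMTS proteases Adamts1, Adamts2 and Adamts5. They were taken by name from the 55487 genes of the deposited values, with symbols from the GRCm38 annotation, and all 10 were found. All 8 libraries came from 1 group: male C57BL/6J mice, 10 weeks old, with both hindlimbs in casts for 8 days, given the K14Q variant of MOTS-c at 15 mg/kg/day, split over 2 intraperitoneal injections a day for 8 days. MOTS-c is a small peptide encoded in mitochondrial DNA, and K14Q is the form with glutamine in place of lysine. The samples are labelled vastus lateralis, whereas the series design and the study's methods name gastrocnemius. Mice given WT MOTS-c and untreated mice were not analysed here, so the values describe immobilized, K14Q-treated muscle and no effect of casting or of the peptide was tested.

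The extracellular matrix of muscle is a mesh of collagens, laminins and proteoglycans around fibers, vessels and nerves. Metalloproteinases are secreted or membrane-bound enzymes that use zinc to cut matrix proteins, and most are made as inactive proenzymes. TIMPs bind the active enzymes and block them, and TIMP2 also has an activating role, since it links pro-MMP2 to MMP14 at the cell surface, where MMP14 removes the propeptide. ADAMTS enzymes are secreted relatives that cut proteoglycans such as aggrecan and versican or trim procollagens. Transcript levels say nothing of how much of an enzyme is in its active form.

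The libraries held 23985356 to 33012497 recovered reads, with a median of 29419182.5, and 15135 genes had at least 10 reads in every library. All 7 markers of fast muscle fibers passed that minimum, and so did all 8 fibroblast and all 7 endothelial markers, whereas 0 of 8 neutrophil markers did. Of the 10 members, 9 passed it, and Mmp9 had only 3 to 23 reads per library. Levels are given as the deposited normalized count, which is the read count divided by a size factor of the library. In bulk muscle, a lower value from fewer cells of a type and one from less RNA per cell cannot be told apart. Each library is a separate sample, so p-values measure the spread between these 8 mice.

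The sequence before the start of 3 members is shown to place one gene of each family in its genomic setting: Mmp14, the activator of pro-MMP2, Adamts1, the most abundant ADAMTS gene here, and Timp1, the least abundant inhibitor. These are RefSeq promoter entries on GRCm38.p6, cut to the 250 bases before the start and free of annotated exon bases. The start is that of RefSeq, which for Mmp14 lies upstream of the annotated gene start given with its counts. Capitals mark the GC box GGGCGG and the TATA box TATAAA, searched on both strands. Mmp14 lies on chromosome 14, Adamts1 on the minus strand of chromosome 16 and Timp1 on the X chromosome, and each run is written 5′ to 3′ on the strand of its gene.
Mmp14, chr14:54431348-54431597, plus strand: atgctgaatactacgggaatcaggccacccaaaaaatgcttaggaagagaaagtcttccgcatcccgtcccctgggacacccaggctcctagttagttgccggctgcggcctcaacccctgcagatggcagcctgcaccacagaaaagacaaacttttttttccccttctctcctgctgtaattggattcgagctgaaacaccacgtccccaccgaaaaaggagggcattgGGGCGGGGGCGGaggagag
Adamts1, chr16:85803114-85803363, minus strand: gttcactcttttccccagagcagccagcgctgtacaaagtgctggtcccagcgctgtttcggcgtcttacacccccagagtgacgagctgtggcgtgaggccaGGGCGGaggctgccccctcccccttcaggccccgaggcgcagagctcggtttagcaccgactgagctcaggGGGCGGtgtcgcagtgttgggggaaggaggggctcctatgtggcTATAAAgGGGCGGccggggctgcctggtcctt
Timp1, chrX:20869916-20870165, plus strand: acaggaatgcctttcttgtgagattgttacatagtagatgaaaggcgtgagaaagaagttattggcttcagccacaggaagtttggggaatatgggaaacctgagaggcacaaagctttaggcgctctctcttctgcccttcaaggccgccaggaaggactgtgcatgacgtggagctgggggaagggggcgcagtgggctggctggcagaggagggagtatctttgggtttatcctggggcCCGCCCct

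The Mmp14 window held 2 adjoining GC boxes, whose first bases lay 19 and 13 bases before the start. The Adamts1 window held 3 GC boxes, at 147, 76 and 25 bases, and a TATA box at 32 bases before the start. Timp1 held 1 GC box on the opposite strand, 8 bases before the start. Of the 7 members in the table, 6 held a GC box in the 250 bases before the start, against 32.7% of all 32851 promoters, and 1 held a TATA box, against 12.4%. Some of these windows hold annotated exon bases, 203 of 250 for Timp2, 40 for Timp3 and 1 for Adamts2, and the other 4 windows hold 0. The AP-1 letters TGANTCA, in which N is any base, were in 0 of the 7 windows and in 6.75% of all promoters. The windows of Adamts2, Adamts1 and Mmp14 were 78.0%, 65.6% and 55.2% G or C, with a median of 52.4% over all promoters. A match in these letters is a description of the sequence only.

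Inhibitor transcripts outnumbered those of the proteases. Timp3 and Timp2 had the highest levels per kilobase of exon of all 10 genes, Mmp2 came next, and Mmp9 was last. To compare genes of different length, each normalized count was divided by the summed length of the gene's annotated exons, in kilobases.

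Timp3 encodes the inhibitor that stays bound to the matrix and also blocks ADAM and ADAMTS enzymes. Its gene (ENSMUSG00000020044, chromosome 10, 86300372 to 86349506, plus strand) had normalized counts of 5377, 6297, 5543, 4818, 5155, 4130, 4698 and 4039 in mice 1 to 8. The mean was 5007 ± 751 (SD, n = 8), with mouse 2 highest and mouse 8 lowest. Timp2, the inhibitor with the role in MMP2 activation, is on the minus strand of chromosome 11 (ENSMUSG00000017466, 118301069 to 118355740). Its normalized counts were 2348, 2897, 1685, 2038, 2099, 1799, 1512 and 1376 in mice 1 to 8, a mean of 1969 ± 492 (SD, n = 8). Mouse 2 stood at 2.11 times mouse 8, and mice 3, 7 and 8 were the lowest.

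Timp4, an inhibitor known from heart, muscle and fat, is on chromosome 6 (ENSMUSG00000030317, 115241892 to 115252205, minus strand) and had normalized counts from 316.0 in mouse 6 to 539.9 in mouse 4, with a median of 464. Timp1, the inhibitor best known for its induction in injured and inflamed tissue, is on the X chromosome (ENSMUSG00000001131, 20870166 to 20874735, plus strand). Its normalized counts were 25.5, 19.5, 9.14, 19.8, 33.0, 29.4, 17.7 and 20.8 in mice 1 to 8, from 11 to 36 reads. It was thus the rare member of its family in every mouse, highest in mouse 5 and lowest in mouse 3. Counting error alone gives a coefficient of variation (CV, the SD as a percentage of the mean) of 21.6% at that depth, of the 33.9% that was observed.

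Within the inhibitor family, Timp2 and Timp3 together made up 90.0% to 93.4% of the summed level per kilobase in the 8 mice. Timp3 was above Timp2 in 8 of 8 mice, by 0.31 ± 0.23 (SD, n = 8) on the log2 scale of level per kilobase plus 1. This difference depends on the length used, since it was 1.02 with the longest transcript and 1.17 with the median coding transcript as the length. Of the inhibitor genes, 3 lie within synapsin genes on the opposite strand, Timp1 in Syn1, Timp3 in Syn3 and Timp4 in Syn2. Reads on exon bases that both genes share cannot be assigned if strand was not used in counting, which the sources used here do not state. Those shared bases were 21.3% of the Timp3 exon bases and 1.53% of those of Timp4, and the synapsin genes were low, with mean normalized counts of 2.24 for Syn1, 5.42 for Syn3 and 42.4 for Syn2.

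Mmp2 encodes gelatinase A, which cuts denatured collagens and basement membrane collagen and is made mainly by fibroblast-like cells. The gene (ENSMUSG00000031740, chromosome 8, 92827291 to 92853420, plus strand) had normalized counts of 1068, 1322, 633, 947, 940.0, 795, 584 and 501 in mice 1 to 8. This was a 2.64-fold range, with mouse 2 highest and mice 3, 7 and 8 lowest, around a mean of 849 ± 275 (SD, n = 8). Mmp14 encodes a metalloproteinase anchored in the cell membrane and is on chromosome 14 (ENSMUSG00000000957, 54431612 to 54445364, plus strand). Its normalized counts lay between 153 in mouse 7 and 258 in mouse 5, with a median of 228, and its CV of 14.9% was the smallest of the members. Mmp9 encodes gelatinase B, which neutrophils and macrophages carry, and is on chromosome 2 (ENSMUSG00000017737, 164940780 to 164955850, plus strand). Its normalized counts were 20.2, 24.9, 17.4, 24.2, 11.9, 11.7, 3.31 and 4.38 in mice 1 to 8, so that mice 7 and 8 stood below the other 6.

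Per kilobase, Mmp2 supplied 81.1% to 89.0% of the 3 metalloproteinases together in each mouse. Among all 21 metalloproteinase genes listed, Mmp2 ranked 1st with a level of 252 ± 81.6 per kilobase (SD, n = 8), Mmp14 3rd with 37.1 ± 5.53 and Mmp9 10th with 4.17 ± 2.35. Between Mmp2 and Mmp14 came Mmp15, another membrane-bound metalloproteinase, with 71.4 ± 19.3 per kilobase. The 3 members held 63.6% of the summed level of the family. With the median coding transcript as the length, Mmp14 ranked 2nd and Mmp9 11th.

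Adamts1 encodes a protease that cuts versican and aggrecan. It is on chromosome 16 (ENSMUSG00000022893, 85793827 to 85803113, minus strand), and its normalized counts were 613, 734, 838, 717, 1046, 615, 913 and 727 in mice 1 to 8. Mouse 5 was highest and mouse 1 lowest, so its profile over mice was unlike that of Mmp2. Adamts5, an aggrecan-cutting enzyme and its neighbor on the same strand (ENSMUSG00000022894, 85856173 to 85901828), ranged from 409 in mouse 3 to 723 in mouse 2, with a median of 497. Adamts2 encodes the enzyme that removes the amino-terminal propeptide of fibrillar procollagens and is on chromosome 11 (ENSMUSG00000036545, 50602084 to 50807573, plus strand). Its normalized counts were 295, 351, 406, 462, 627, 322, 256 and 255 in mice 1 to 8, with mouse 5 above the rest. These 3 genes ranked 1st, 2nd and 3rd per kilobase of the 19 ADAMTS genes listed, in the order Adamts1, Adamts5 and Adamts2, and held 69.7% of the family's summed level. With the median coding transcript as the length, Adamts1 stayed 1st, Adamts2 was 4th and Adamts5 5th.

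**Figure D1:**
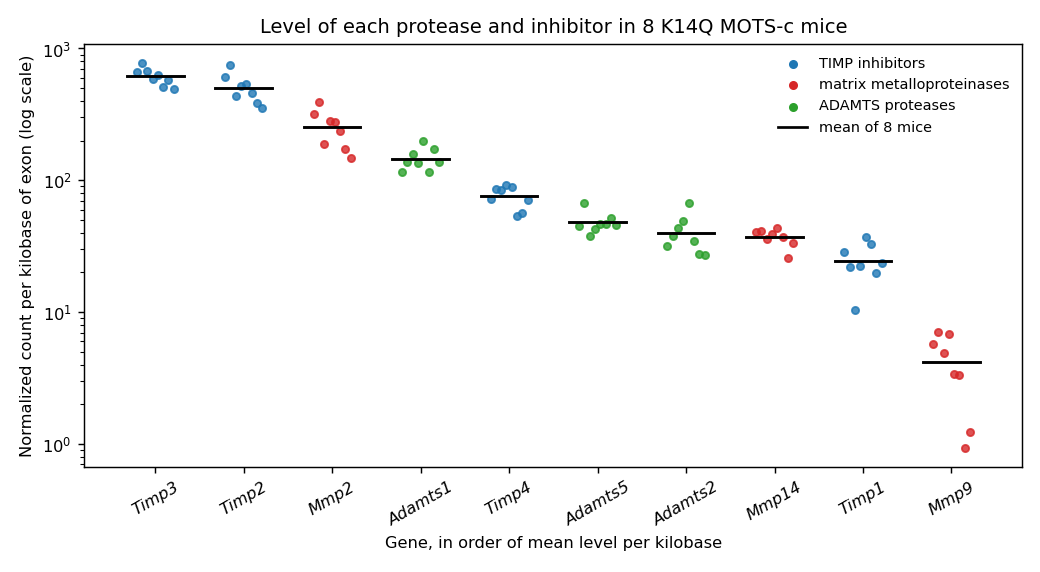
Normalized count per kilobase of exon (log axis) for each of the 10 genes, in order of their means; each point is 1 of 8 mice, drawn from mouse 1 at the left to mouse 8 at the right, and the line is the mean. Timp3 (mean 615) and Timp2 (505) lie highest, Timp1 (24.6) and Mmp9 (4.17) lowest, and Adamts5, Adamts2 and Mmp14 overlap between 25.7 and 67.2.

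The order of levels per kilobase was Timp3, Timp2, Mmp2, Adamts1, Timp4, Adamts5, Adamts2, Mmp14, Timp1 and Mmp9, with means of 615, 505, 252, 146, 75.5, 47.9, 39.8, 37.1, 24.6 and 4.17. Each of the 45 pairs was compared within mice by a two-sided exact sign-flip permutation test on log2(level per kilobase + 1), adjusted by Benjamini-Hochberg over the 45. In 43 pairs the same gene was higher in all 8 mice (adjusted exact p = 0.0082, from the smallest p that 8 mice allow, 0.0078). Among the 9 pairs of neighbors in the order, 7 passed. Adamts5 and Adamts2 differed by 0.30 ± 0.54 (SD, n = 8) on that log2 scale, with Adamts5 higher in 5 of 8 mice (adjusted exact permutation p = 0.16). Adamts2 and Mmp14 differed by 0.06 ± 0.34 (SD, n = 8), with Adamts2 higher in 4 of 8 mice (adjusted exact permutation p = 0.66). Both differences turned negative when the longest transcript was used as the length, to -0.049 and -0.45, and the difference of Adamts2 and Mmp14 then passed (adjusted exact permutation p = 0.016, Mmp14 higher), so the order of these 3 genes depends on the length chosen.

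The ratio of inhibitor to protease transcripts was formed within each library and so does not depend on library scaling, although it does depend on the gene lengths used. The summed level per kilobase of the 4 inhibitors over that of the 3 metalloproteinases was 3.76, 3.68, 5.28, 3.76, 3.99, 3.81, 5.21 and 5.14 in mice 1 to 8. Mice 3, 7 and 8 lay above the other 5, which spanned only 3.68 to 3.99. The ratio of Timp3 to Mmp2 separated the same 3 mice, at 3.33 to 3.62 against 1.97 to 2.27. The ratio of Timp2 to Mmp2 varied least, from 1.86 to 2.37 with a CV of 10.2%. With the longest and the median coding transcript as the length, Timp3 over Mmp2 was higher, at 5.24 to 5.71 and 5.95 to 6.47 in mice 3, 7 and 8 against 3.11 to 3.57 and 3.52 to 4.06 in the others. The same 3 mice had the lowest scores (mean z-score of the markers) for fibroblasts, at -0.38, -0.76 and -1.20 in mice 3, 7 and 8 against 0.012 or more in the others. They were also lowest for tendon, at -0.64, -0.78 and -1.27 against 0.25 or more, and for macrophages, at -0.013, -1.33 and -0.97 against 0.19 or more. The other lists did not place these 3 mice lowest. Mouse 3 had the highest adipocyte score (1.03) and an endothelial score of 0.37, and mouse 6 was lowest for endothelium (-1.04). Mmp2, the main part of the denominator, ranked the mice just as the fibroblast and tendon scores did (rho = 1). The mice with the lowest Mmp2 thus have the lowest scores on both lists. Mice 3, 7 and 8 are not a group of the study, the gap was not tested, and the part of any cell type in it was not tested.

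**Figure D2:**
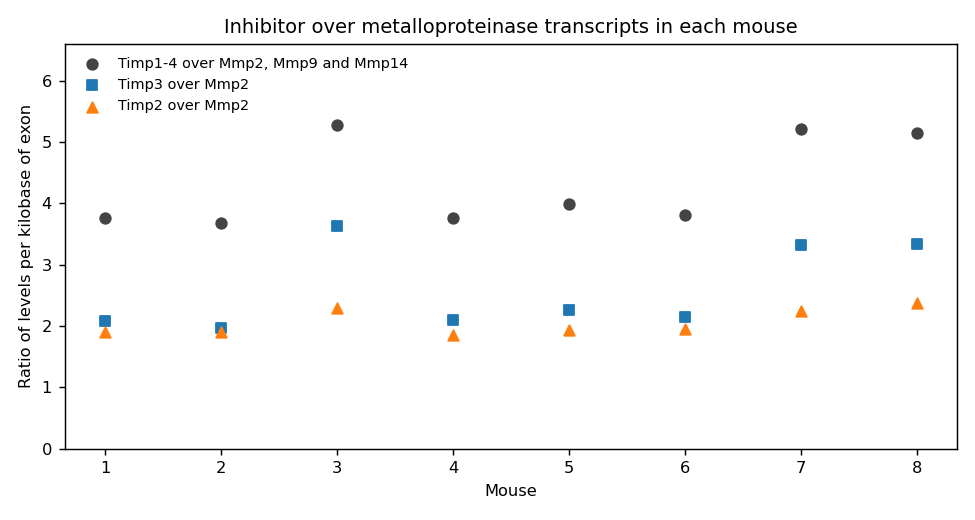
Ratio of levels per kilobase of exon in each of the 8 mice (horizontal axis) for all 4 inhibitors over the 3 metalloproteinases (circles), Timp3 over Mmp2 (squares) and Timp2 over Mmp2 (triangles). Mice 3, 7 and 8 lie at 5.14 to 5.28 on the first ratio and the other 5 at 3.68 to 3.99.

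The spread between mice was set against counting error by a chi-square test of the recovered reads for each gene with at least 10 reads in every library, with Benjamini-Hochberg adjustment. Of 15135 genes tested, 12264 varied beyond counting error, which is 81%. All 9 members tested were among them, a share close to that background, and of the 40 genes of related lists that could be tested 36 were. The weakest of the 9 were Timp1 (adjusted chi-square p = 0.0089) and Mmp14 (adjusted chi-square p = 5.94e-05). Mmp9, tested when the read minimum was dropped, also passed (adjusted chi-square p = 0.00029). The median CV was 19.2% over the 9 members and 15.6% over all genes tested. Adamts2 (33.8%), Timp1 (33.9%) and Mmp2 (32.4%) had a CV above that of 93.0%, 93.1% and 91.7% of genes, whereas Mmp14 (14.9%) and Timp3 (15.0%) lay near the middle.

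**Figure D3:**
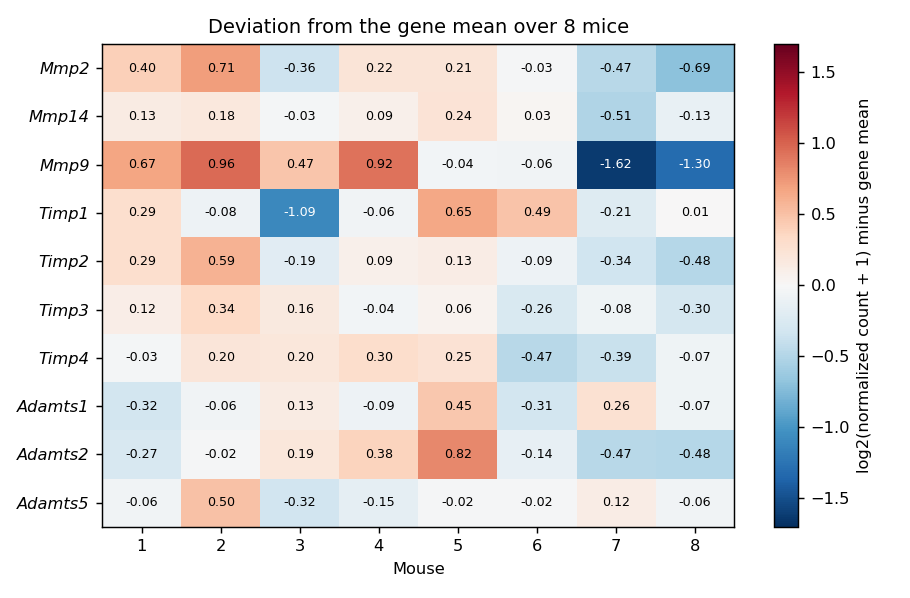
Deviation of log2(normalized count + 1) from the mean of the gene over 8 mice, with genes in rows, mice in columns and the value printed in each cell. Mmp2 and Timp2 share their pattern (0.71 and 0.59 in mouse 2, -0.69 and -0.48 in mouse 8), Adamts2 peaks in mouse 5 (0.82), and Mmp9 is lowest in mouse 7 (-1.62).

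Mmp2 and Timp2 rose and fell together from mouse to mouse. Mouse 2 was highest for both, mouse 8 was lowest for both, and the ranks of the other 6 mice differed only by an exchange of mice 4 and 5. Pearson's r of log2(normalized count + 1) was 0.986 (n = 8, exact permutation p = 4.96e-05, adjusted p = 0.0022 over 45 pairs) and Spearman's rho was 0.976 (exact permutation p = 0.00040, adjusted p = 0.018). Without the 2 mice farthest from the median of Mmp2, r was 0.978, and leaving out each mouse in turn gave 0.980 to 0.990.

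None of the other 44 pairs passed the adjusted threshold, although 34 of all 45 correlations were positive and 7 had an unadjusted exact permutation p under 0.05. The next pairs joined the same metalloproteinases and inhibitors: r was 0.807 for Mmp2 with Mmp9, 0.807 for Mmp9 with Mmp14, 0.806 for Mmp9 with Timp2, 0.768 for Timp2 with Timp3, 0.751 for Mmp2 with Mmp14 and 0.734 for Mmp14 with Timp2 (n = 8, adjusted exact permutation p from 0.17 to 0.22). The relation of Mmp9 with Mmp14 rested on 2 mice, since r was 0.026 without the pair farthest from the median. In the same way r fell to 0.322 for Timp2 with Timp3, 0.563 for Mmp9 with Timp2 and 0.673 for Mmp2 with Mmp9, whereas it was 0.820 for Mmp2 with Mmp14 and 0.723 for Mmp14 with Timp2. Adamts1, Adamts2 and Adamts5 gave r between -0.21 and 0.48 among themselves. Timp1 gave r of 0.37 with Mmp2 and of 0.26 with Timp2, far from the threshold with 8 mice (adjusted exact permutation p = 0.65 and 0.76).

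**Figure D4:**
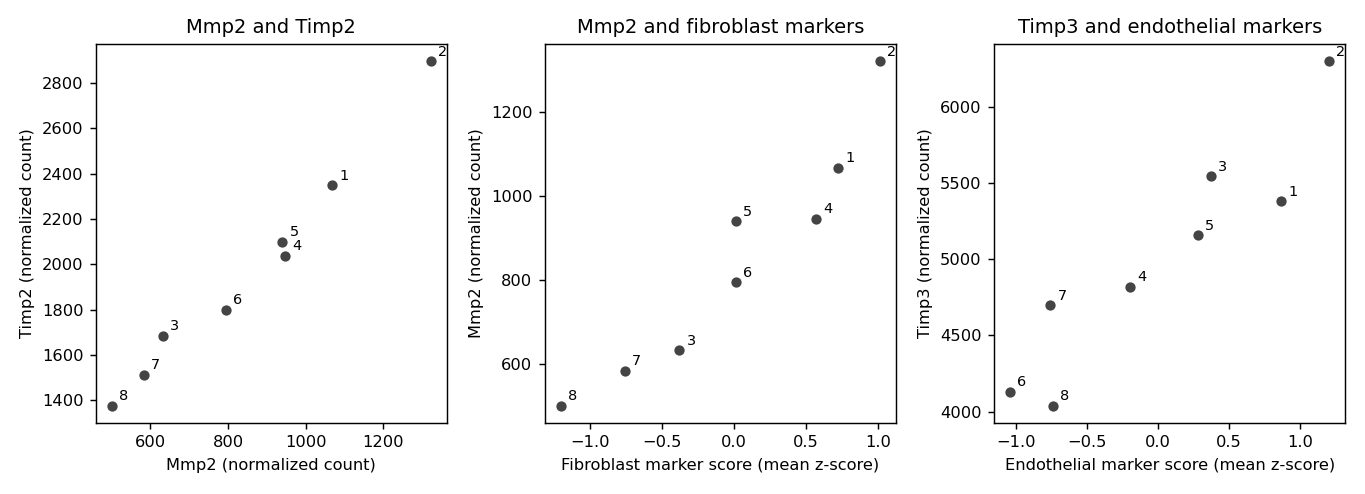
Each point is 1 mouse, with its number: normalized count of Timp2 against Mmp2 (left), of Mmp2 against the fibroblast marker score (middle) and of Timp3 against the endothelial marker score (right), where a score is the mean z-score of the markers of the list. In the left and middle panels the mice run from mouse 8 at the lower left to mouse 2 at the upper right (r of log2 values 0.986 and 0.973), and in the right panel mouse 2 is again highest (r = 0.934).

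Markers of the cell types that muscle contains were followed beside the members. Each of the 10 members was correlated with the score of each of 10 marker lists, and 8 of these 100 relations passed (exact permutation, Benjamini-Hochberg over 100), with 20 at an unadjusted p under 0.05. Mmp2 moved with the fibroblast list (r = 0.973, rho = 1, n = 8, adjusted exact permutation p = 0.0087, r = 0.938 without the 2 farthest mice) and with the tendon list (r = 0.962, adjusted exact permutation p = 0.0025, r = 0.912 without them). Timp2 did so too, with r = 0.954 for fibroblasts (n = 8, adjusted exact permutation p = 0.012) and r = 0.908 for tendon (adjusted exact permutation p = 0.014). All 8 fibroblast markers correlated positively with both genes, and their summed normalized count ran from 10294 in mouse 8 to 19186 in mouse 2. The summed tendon markers ran from 898 in mouse 8 to 6087 in mouse 1, and 4 of the 6 had the read minimum. All 6 correlated positively with Mmp2 (lowest r 0.0027), and 5 of 6 did with Timp2 (lowest r -0.081). The relations of Mmp2 with both lists and of Timp2 with fibroblasts passed without any 1 mouse, whereas Timp2 with tendon missed the threshold without mouse 1, 4, 5 or 8 (adjusted p = 0.083, 0.087, 0.079 and 0.088).

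With the linear trend on the fibroblast score removed from both genes, r of Mmp2 and Timp2 was 0.832 (n = 8), against 0.986 before. This alternative was chosen after seeing the data. No p-value is given for it, because values left after a shared fitted trend cannot be freely exchanged between mice. With the trend on the tendon, macrophage or endothelial score removed, r was 0.983, 0.977 and 0.989. What part the number of fibroblasts has in the levels themselves or in this correlation was not tested.

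Timp3 moved with the endothelial list (r = 0.934, n = 8, adjusted exact permutation p = 0.019; rho = 0.905, adjusted exact permutation p = 0.065; r = 0.854 without the 2 farthest mice). All 7 endothelial markers had the read minimum and correlated positively with Timp3, and their summed level was between 3783 in mouse 8 and 5571. That relation missed the threshold without mouse 2, 4, 5 or 6 (adjusted p = 0.13, 0.087, 0.079 and 0.054). Its r was 0.840 with both the mural cell and the adipocyte lists (adjusted exact permutation p = 0.088 for each, n = 8), and the adipocyte relation passed with read-minimum markers only (r = 0.895, adjusted exact permutation p = 0.037) and without mouse 6 (r = 0.917, adjusted exact permutation p = 0.023). Its r with the fibroblast list was 0.66, and whether the relations of Timp3 differ from those of Timp2 was not tested.

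Mmp9 passed with the macrophage (r = 0.933), fibroblast (r = 0.879) and neutrophil (r = 0.813) lists, each at an adjusted exact permutation p of 0.047 (n = 8). With Spearman correlation the macrophage (rho = 0.833, adjusted exact permutation p = 0.11) and fibroblast (rho = 0.881, adjusted exact permutation p = 0.080) relations missed the threshold. The neutrophil relation passed (rho = 0.952, adjusted exact permutation p = 0.023). The macrophage and fibroblast relations lost the threshold whichever mouse was left out (adjusted p from 0.054 to 0.14 and from 0.054 to 0.16), and the neutrophil relation lost it in 6 of 8 cases. Without the 2 farthest mice, r was 0.554 with macrophages, 0.806 with fibroblasts and 0.984 with neutrophils. With only the macrophage markers that had the read minimum, r was 0.967 (adjusted exact permutation p = 0.0084, n = 8). Mmp9 correlated positively with all 8 fibroblast markers, 8 of 9 macrophage markers (lowest r -0.15) and 7 of 8 neutrophil markers (lowest r -0.30). The summed macrophage markers ran from 1750 in mouse 7 to 4380, with 8 of 9 above the read minimum. The summed neutrophil markers ran only from 4.42 in mouse 7 to 94.6, and S100a9, Ly6g, Retnlg, Ngp and Camp were at 0 in at least 1 library. The part of immune cells in the Mmp9 level was not tested.

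The other members had no relation past the threshold with the deposited scaling and all 8 mice. Timp1 gave r of 0.24 with fibroblasts and 0.21 with macrophages, and Adamts1 gave r of -0.35 with fibroblasts. By adjusted p Mmp14 came nearest, with r = 0.838 for macrophages (n = 8, adjusted exact permutation p = 0.086). That r fell to 0.146 without the 2 farthest mice and was 0.898 with scaling by library totals (adjusted exact permutation p = 0.027). With the sparse neutrophil list, r of Mmp14 was higher, at 0.898 with the deposited scaling (rho = 0.595, n = 8, adjusted exact permutation p = 0.13). Timp4 with the sparse neutrophil list passed with library totals (r = 0.767, adjusted exact permutation p = 0.022) and without mouse 7 (r = 0.927, adjusted exact permutation p = 0.043). The mural cell, adipocyte, Schwann cell, satellite cell and fast muscle fiber lists passed with none of the 10 genes in that fit. Of 20 relations of members with the read total and with the share of reads taken by the 10 most abundant genes, which was 18.8% to 26.2%, none passed. The lowest p was that of Adamts5 with this share (r = 0.693, rho = 0.619, n = 8, exact permutation p = 0.044, adjusted p = 0.89), where r was 0.809 without the 2 farthest mice.

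**Figure D5:**
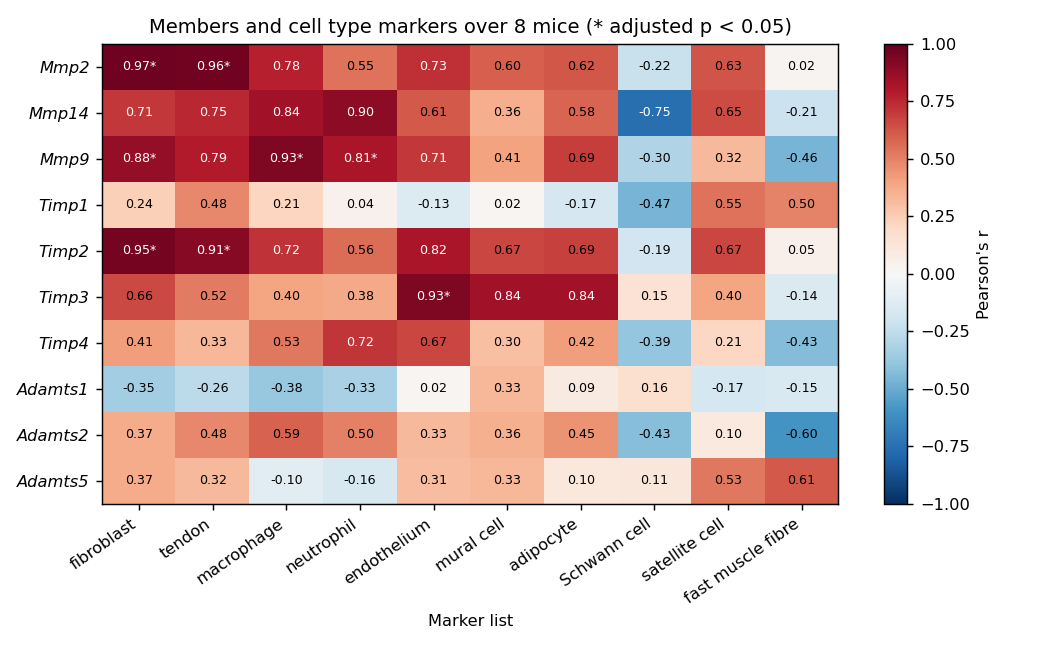
Pearson's r over 8 mice between each member (rows) and the score of each marker list (columns), with the value in each cell and an asterisk where the adjusted exact permutation p was under 0.05. The 8 asterisks fall on Mmp2, Timp2, Timp3 and Mmp9, and none on Timp1, Timp4, Mmp14 or an ADAMTS gene.

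Among 15099 named genes with the read minimum, the 3 whose profile over the 8 mice was most like Mmp2 were Timp2 (r = 0.986), Zmym2 (r = 0.984) and Fli1 (r = 0.981). For Timp2 they were Zmym2 (r = 0.990), Mmp2 and Camk1d (r = 0.981). So each of these members was among the 3 genes nearest to the other, out of the 15099 compared. Timp3 was nearest to Gimap4 (r = 0.981), Gnai1 (r = 0.978) and Cep152 (r = 0.974), and Adamts2 to Flnc (r = 0.986), Tmf1 (r = 0.975) and Pdpk1 (r = 0.973). Mmp14 was nearest to Klhl4, Dock5 and Atf7ip, Timp4 to Tmppe, Edc4 and Exph5, Adamts1 to Mir1892, Rmnd5b and Zfpm1, and Adamts5 to Gm12097, Ccdc47 and Tab3, with r from 0.944 to 0.970. Timp1 had the fewest close profiles, with Rhbdl3 first (r = 0.921) and only 4 genes at r over 0.9, against 155 for Mmp2 and 183 for Timp2. These r values rest on 8 points and were picked as the highest of 15099, so they are given as a description with no test.

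The related genes place the members in their pathway, and their counts of genes that varied beyond counting error are to be read against the 81% of all genes tested. Of the 18 other metalloproteinases, 5 had the read minimum, and 3 of those 5 varied beyond counting error. Of all 18, Mmp15 was the highest (71.4 per kilobase) and Mmp20 the lowest (0.126 per kilobase). Of the 16 other ADAMTS genes 8 had it, led by Adamts9 (25.5 per kilobase), with Adamts19 lowest (0.0949 per kilobase), and 7 of the 8 varied. The ADAM proteases, membrane enzymes that shed surface proteins, had 6 of 7 with the minimum. Adam9 (707 per kilobase) was the highest of them and Adam12 the lowest (3.08 per kilobase). With the union of exons as the length, Adam9 was above the mean level of every member, and other lengths were not tried for it. All 6 with the minimum varied beyond counting error.

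In the plasminogen system, which makes the protease plasmin that can activate metalloproteinases, 5 of 6 genes had the minimum and 4 of them varied. Plau, the urokinase activator, was the highest (169 per kilobase) and Plg, the liver-made precursor of plasmin, the lowest (0.173 per kilobase). Of the 8 genes for activation, clearance and other control, 7 had the minimum and all 7 varied. Bsg, which encodes basigin, a membrane protein known to induce metalloproteinases, was the highest (3718 per kilobase), and A2m, the plasma protease inhibitor, the lowest (0.0296 per kilobase). Among 10 substrates, 9 had the minimum and all 9 varied, with Col3a1, a fibrillar collagen, highest (302 per kilobase) and Acan, the cartilage proteoglycan aggrecan, lowest (0.0523 per kilobase).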

How the data were processed

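The authors sequenced mRNA libraries on an Illumina NextSeq platform, and their processing notes name FastQC, fastp and STAR with GRCm38.p6. Per the study's methods, reads were counted with summarizeOverlaps and DESeq2 was used to test differences; the normalization is not described there. The annotation release and the handling of strand and of reads with several matches are not given in the sources used here. The deposited signal is a count divided by 1 size factor per library (0.906 to 1.20). Dividing by the smallest step of each library gave whole reads for 100% of the nonzero values, within a tolerance of 0.01 of a read, and these reads were used for depth and count minimums.

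With 1 group of 8 mice, no count test between groups could be run. Symbols, positions and exon lengths came from GENCODE M21 on GRCm38. Levels per kilobase used the union of exons, and a pseudocount of 1 was added only before taking log2. Tests were exact sign flips (256), exact permutations of pairings (40320) and a chi-square test against Poisson counting error, each tested on simulated data, with a threshold of 0.05 after Benjamini-Hochberg adjustment. Counting error was taken for reads without molecular identifiers. No library repeated another: chi-square per degree of freedom was 14.9 to 108 over the 28 pairs. The members and all gene lists were chosen with earlier results of these data known. Genes named are all members, the highest and lowest of each list, marker genes of lists that moved with a member, overlapping genes and the 3 most similar genes per member with at least 10 reads in every library. Alternatives were edgeR TMM factors, library totals, other lengths, a pseudocount of 5, Spearman correlation, markers with the read minimum only, no read minimum and leaving out each mouse. Software was edgeR 4.0.16 in R 4.3.3, and scipy 1.17.1, pandas 2.3.3 and numpy 2.4.6 in Python 3.11.15.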

Additional observations from a re-analysis of the deposited data

Results flagged for a closer look

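The Adamts5 normalized count of mouse 2, 723, lay apart from the other 7 mice. The next value was 556, and this gap was 0.530 of the whole range, just beyond Dixon's critical value for 8 values. Of the 20 measures checked this way (the 10 genes and 10 ratios or shares), 1 was beyond the critical value, and chance gives about 1 in 20. Without mouse 2, the mean normalized count of Adamts5 was 488.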

How the results depend on the processing

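Some counts kept within 1.5 times their value under every alternative run. They were the gene pairs that passed the order test (43), the single correlated pair and the genes that varied beyond counting error. A stable count does not mean that each pair kept its direction. Adamts5 was above Mmp14 in mean level per kilobase with the union of exons (47.9 against 37.1). It was below Mmp14 with the longest transcript (47.9 against 68.2) and the median coding transcript (47.9 against 85.1). TMM factors changed no direction and no count of calls among members, and with library totals the 8 relations between members and marker lists became 10, with Mmp14 and macrophages (r = 0.898) and Timp4 and neutrophils (r = 0.767) added. That count was 7 with a pseudocount of 5, 5 with Spearman correlation, 8 with the read-minimum markers (Timp3 and adipocytes added, r = 0.895) and 3 to 6 when each mouse was left out, where with 7 mice fewer pairings are possible. With the length of the longest transcript, Adamts2 minus Mmp14 was -0.45 and Adamts5 minus Adamts2 was -0.049 (log2); with the median coding transcript they were -0.77 and -0.049. In the same order of lengths, Timp3 minus Timp2 rose from 0.31 to 1.02 and 1.17 and Mmp14 minus Timp1 from 0.64 to 1.49 and 1.77; with the median coding transcript, Timp4 minus Adamts5 rose from 0.64 to 1.5 and Timp1 minus Mmp9 was 1.66 in place of 2.39. Lengths for ratios and family ranks were varied after seeing the data. Leaving out each mouse gave Adamts2 minus Mmp14 from -0.026 (without mouse 5) to 0.11 (without mouse 1). Mmp9 with neutrophil markers missed the threshold with a pseudocount of 5 (adjusted exact permutation p = 0.069), and with markers limited to those with the read minimum no neutrophil marker remained. The 9 members that varied beyond counting error became 8 without mouse 3 or mouse 7. No paired analysis was possible because all libraries belong to 1 group. Depth limits Mmp9 (3 to 23 reads) and Timp1 (11 to 36 reads), and 8 mice of 1 group allow no statement on treatment.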

Other observations

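Adamts1 and Adamts5 lie next to each other on chromosome 16, 53059 bases apart, yet their levels gave r = -0.019 over the 8 mice (exact permutation p = 0.96, adjusted p = 0.97). Adamts1 was above Adamts5 in 8 of 8 mice, by 2.07 times in mouse 2 to 4.24 times in mouse 5 per kilobase.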
